A study of Mus musculus with 44 samples.

Results

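The 1000 widest H3K27ac peaks of cortical neurons are described here, called domains below. H3K27ac is acetylation of lysine 27 on histone H3. The 1000 domains were taken from 141298 cortical peaks, of which 138124 lie on autosomes. They were chosen by width alone, as the peaks with the largest distance between start and end, and ties went by chromosome and start. Width was thus the value that chose them, and it is given as a description with no test. The domains ran from 6624 to 34660 bp with a median of 8208 bp, against 250 to 6623 bp with a median of 577 bp in the other autosomal peaks. There were 255 domains of at least 10 kb and 21 of at least 20 kb. At the lower edge, domains beside Gosr2 and in Asap2 and Ntrk2 measured 6628, 6630 and 6624 bp. Just outside the set, peaks in Mtcl1 and beside Cyria measured 6614 and 6610 bp.

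Chromatin was taken from adult C57BL/6 mice in 2 cortical libraries labelled Polg(D181A), written Polg below, and 2 wild-type (WT) cortical libraries. Polg encodes the mitochondrial DNA polymerase, D181A is a mutation in it, and the series presents the line as a bipolar disorder model. Nuclei had been stained for NeuN, a neuronal nuclear protein, and sorted before immunoprecipitation, so the libraries stand for sorted nuclei and not for whole cortex. The paraventricular thalamic nucleus (PVT), the caudate putamen (CP) and the nucleus accumbens (NAC) were profiled in the same way, again with 2 Polg and 2 WT libraries each. As background that the labels do not state, the mutant Polg of this line is carried by a transgene under the Camk2a promoter, which is active in forebrain excitatory neurons. The labels do not say whether replicates came from separate animals, so the p-values measure only the spread between these libraries, which may be technical.

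H3K27ac marks active promoters and enhancers. Unusually wide stretches of it, often called super-enhancers or stretch enhancers, are known to gather at genes that define a cell's identity. Transcription factors of cortical projection neurons include Neurod6, Tbr1 and Bcl11a. Npas4 stands for another class, the genes that neurons induce when they are active. Because one value is summed over each whole domain, acetylation of a few sites and acetylation along the full width cannot be told apart from these counts.

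Promoters of 4 genes whose starts lie in a domain are shown, since they mark the types of locus the set holds: 1 transcription factor start in the widest class (Bcl11a), 2 starts in domains with next to no cover in the other brain regions (Neurod6 and Tbr1), and 1 activity-regulated gene (Npas4). Each runs 5′ to 3′ along the gene's strand, from 250 bases before to 50 bases after the start, and is taken from RefSeq on GRCm38.p6, which is mm10. Capitals mark the motifs GGGCGG (the GC box), CCAAT and TGACG (the core of the cAMP response element), searched on both strands.
Bcl11a, chr11:24080445-24080744, plus strand: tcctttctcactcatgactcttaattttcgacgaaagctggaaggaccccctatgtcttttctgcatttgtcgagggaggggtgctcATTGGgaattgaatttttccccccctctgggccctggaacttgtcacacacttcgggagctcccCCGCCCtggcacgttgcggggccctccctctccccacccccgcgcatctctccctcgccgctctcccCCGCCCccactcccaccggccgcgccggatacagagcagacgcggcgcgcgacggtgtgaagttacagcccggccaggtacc
Neurod6, chr6:55681214-55681513, minus strand: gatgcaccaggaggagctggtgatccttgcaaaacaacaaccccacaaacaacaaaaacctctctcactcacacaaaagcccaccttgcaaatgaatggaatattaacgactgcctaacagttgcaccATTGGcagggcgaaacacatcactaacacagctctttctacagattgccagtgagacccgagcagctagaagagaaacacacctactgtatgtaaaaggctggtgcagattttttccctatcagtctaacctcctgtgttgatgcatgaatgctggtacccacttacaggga
Tbr1, chr2:61804203-61804502, plus strand: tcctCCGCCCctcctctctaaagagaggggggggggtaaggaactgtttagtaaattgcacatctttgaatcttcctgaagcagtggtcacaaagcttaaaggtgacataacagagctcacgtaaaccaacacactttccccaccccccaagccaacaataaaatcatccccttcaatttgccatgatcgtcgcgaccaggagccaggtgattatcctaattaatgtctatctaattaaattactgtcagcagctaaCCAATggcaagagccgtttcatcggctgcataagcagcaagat
Npas4, chr19:4989922-4990221, minus strand: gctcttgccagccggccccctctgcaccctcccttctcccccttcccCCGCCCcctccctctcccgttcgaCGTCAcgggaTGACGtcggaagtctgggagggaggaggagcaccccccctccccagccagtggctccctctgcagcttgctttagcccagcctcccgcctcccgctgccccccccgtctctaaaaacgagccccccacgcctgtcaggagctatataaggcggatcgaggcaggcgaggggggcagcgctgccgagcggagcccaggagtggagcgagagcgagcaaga

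These promoters differed in CpG content, with 23 CpG in Bcl11a and 21 in Npas4 against 7 in Tbr1 and 3 in Neurod6. Across the 221 promoters of 165 protein-coding genes that start in a domain, the median was 17 CpG, against 22 in promoters within other cortical peaks and 14 in all autosomal promoters of the table. The GC box stood in 59.7% of domain promoters, 65.7% of promoters in other cortical peaks and 47.0% of all promoters. CCAAT stood in 36.2%, 35.7% and 38.1%, and TGACG in 22.6%, 31.6% and 24.0%, in the same order. A match is a description of letters and not of binding.

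The widest domain covered 34660 bp at chr3:122470155-122504815 over the start of Bcar3, which encodes an adaptor protein of integrin signalling. It had 10.9 and 13.5 CPM per kb in Polg libraries and 14.96 and 7.85 in WT libraries. CPM are counts divided by a library total that was scaled by the trimmed mean of M values (TMM), and the division by kilobases makes domains of unequal width comparable. The next was 34083 bp wide at chr18:60607480-60641563 in Synpo, an actin-binding protein of dendritic spines, with 10.1 and 12.5 CPM per kb in Polg libraries and 13.7 and 12.6 in WT libraries. Zfp532, a zinc finger gene, held the third at chr18:65561431-65594087 with 10.6 and 10.8 CPM per kb in Polg libraries and 10.5 and 9.02 in WT libraries. The groups overlapped at Bcar3, while both Polg libraries lay just below both WT libraries at Synpo (log2 fold change -0.22, SE 0.27) and just above them at Zfp532 (0.13, SE 0.28).

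The rest of the 10 widest lay at Chrna1, a muscle-type nicotinic receptor subunit, beside Cxxc5, in Zranb3, in Meltf, at Bcl11a, in Cables1 and in Msra, the methionine sulfoxide reductase A gene. The Chrna1 domain, chr2:73580237-73610355, reached 30017 bp upstream of the Chrna1 start and only 101 bp into the gene, and it also overlapped the noncoding genes Chn1os3 and Chrna1os. Bcl11a, a zinc finger repressor that shapes deep-layer projection neurons, had 24149 bp at chr11:24073377-24097526. It had 9.88 and 10.4 CPM per kb in Polg libraries and 13.8 and 5.52 in WT libraries, so that the WT libraries enclosed the Polg libraries. Peaks covered 36.7% of its length in PVT, 74.1% in CP and 100% in NAC, so the Bcl11a domain was not particular to cortex. Only 3 of the 10 widest, those of Bcar3, Chrna1 and Bcl11a, contained a protein-coding gene start in the table used, which holds no starts for chromosome 18, where 4 of the 10 lie.

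**Figure D1:**
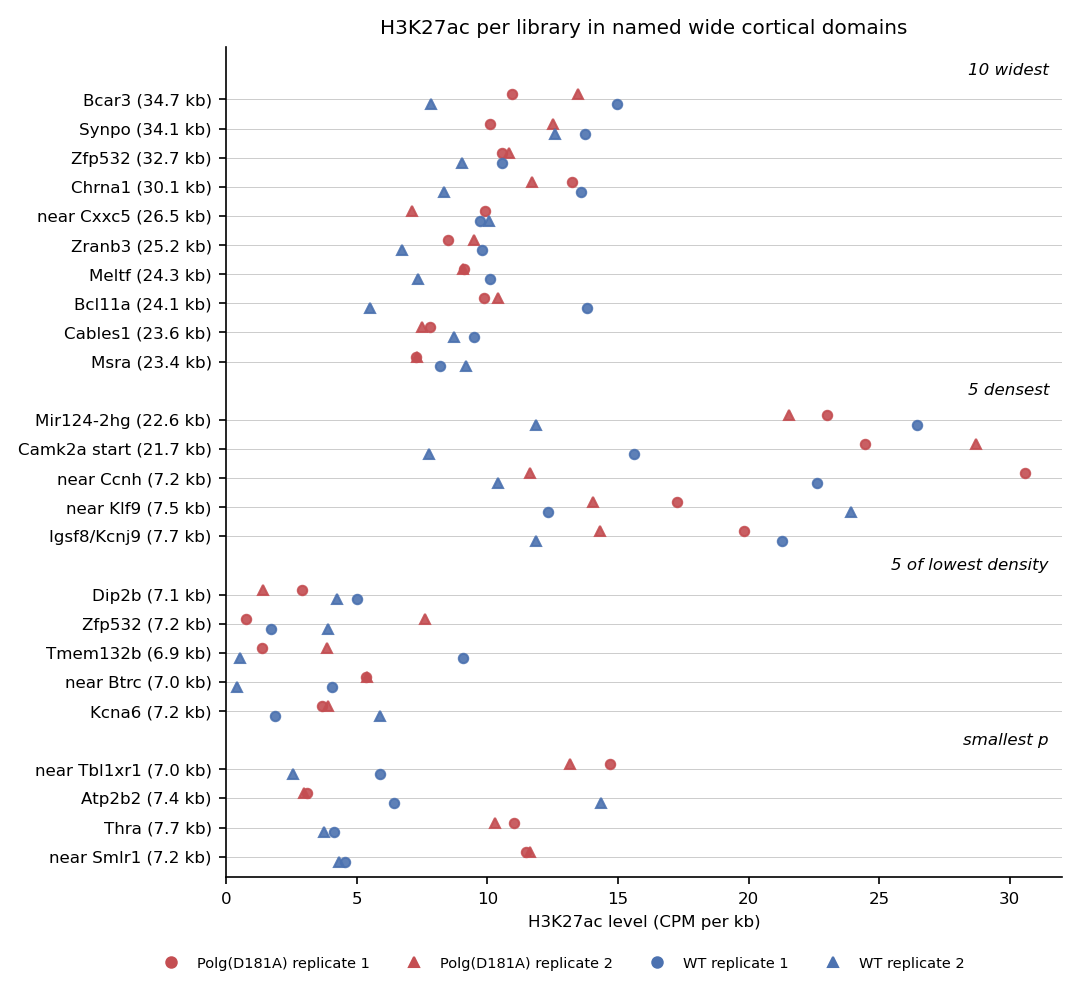
H3K27ac level (CPM per kb, horizontal axis) in each cortical library for the 10 widest domains, the 5 densest, the 5 of lowest density and the 4 others among the 5 of smallest p; red marks are Polg and blue marks WT, circles replicate 1 and triangles replicate 2, with no error bars because each library is drawn. At the Camk2a start the Polg libraries stand at 24.4 and 28.7 and the WT libraries at 15.6 and 7.78, and in 5 of the 10 widest domains the WT libraries lie on both sides of the Polg libraries.

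The domains held 0.724% of the autosomal peaks, 6.72% of the autosomal peak length (9.38 Mb) and between 7.49% and 8.20% of the autosomal counts in every library. By the mean of the 4 libraries, their median level was 8.07 CPM per kb (range 3.39 to 20.7). That of the other peaks was 6.89 CPM per kb, a ratio of 1.17, which was lower than in any single library. Per library, the domain median was 7.97 and 7.85 CPM per kb in Polg and 9.07 and 6.70 in WT. No domain had 0 counts in any library, and the lowest count was 111, whereas between 15.6% and 41.9% of the other peaks had 0 counts, depending on the library. The ratio of domain median to other-peak median therefore moved with the library and was 2.17 and 1.34 in Polg libraries and 1.35 and 5.24 in WT libraries. Across domains, Spearman's rank correlation of width with level was 0.18 (n = 1000 domains of the same 4 libraries), a description only.

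The densest domain was 22640 bp at chr3:17777086-17799726, outside protein-coding genes and over Mir124-2hg, the host of Mir124a-2. It had 23.0 and 21.5 CPM per kb in Polg libraries and 26.4 and 11.9 in WT libraries. miR-124 is the most widely known neuronal microRNA, and all 3 of its mouse genes lay in domains. The Mir124a-1 domain, chr14:64576263-64598437, had 13.1 and 8.70 CPM per kb in Polg libraries and 12.2 and 7.98 in WT libraries, and that of Mir124a-3, chr2:180888984-180898147, had 12.5 and 10.7 in Polg libraries and 6.55 and 9.72 in WT libraries. In all, 21 microRNA genes lay in 17 domains, among them Mir135b in Lemd1 and the smooth muscle pair Mir143 and Mir145a. The mature miR-124 sequence is not printed here.

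The other dense domains lay at the Camk2a start, over the noncoding gene Gm34196 (nearest protein-coding gene Ccnh, at 428708 bp), beside Klf9, a glucocorticoid-induced transcription factor, and over Igsf8 and the potassium channel gene Kcnj9. They ranged from 16.8 to 19.1 CPM per kb. The 5 of lowest density lay in Dip2b, Zfp532, Tmem132b and Kcna6 and beside Btrc, between 3.39 and 3.83 CPM per kb, and there single libraries spread widely. Tmem132b had 1.38 and 3.85 CPM per kb in Polg libraries and 9.07 and 0.516 in WT libraries.

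Domains lay mostly in genes. Of the 1000, 701 overlapped a protein-coding gene (70.1%, against 59.3% of other peaks), and together they touched 610 of 20665 autosomal protein-coding genes (2.95%). A gene start lay in 147 of the 945 domains outside chromosome 18 (15.6%, against 4.26% of other peaks), and 17 domains held the starts of 2 or more genes. The peaks of rank 1001 to 2000 held a start in 15.2%, so that the share changed little with width at this end of the range. The remaining 299 domains lay outside protein-coding genes, at a median of 41.9 kb from the nearest, and 124 of these overlapped a long noncoding RNA gene.

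Where a domain held the start of exactly 1 gene (130 domains), 84 reached further downstream than upstream, with medians of 5463 bp downstream and 3446 bp upstream. In peaks of rank 1001 to 2000 the medians were 3602 and 2132 bp, and the share reaching further downstream was 59.7%, against 64.6% in the domains. Bcl11a followed this form, with 16831 bp downstream and 7318 bp upstream, and so did Mef2d, an activity-dependent transcription factor, with 11697 and 4813 bp. Npas4, an activity-induced transcription factor, did the reverse, with 582 bp downstream and 11824 bp upstream. Per1, a clock gene, had 2376 bp downstream and 6138 bp upstream. In 11 domains the whole gene lay inside, among them Neurod6 (gene of 3446 bp in a domain of 14829 bp), Id2, an inhibitor of helix-loop-helix factors (2294 bp in 8989 bp), and Nab2, a corepressor of EGR factors (5786 bp in 10174 bp).

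Domains lay close together. Joined where the gap was at most 100 kb, 461 of the 1000 fell into 166 chains of 2 or more. The longest chain held 15 domains over 457 kb at chr14:64141013-64598437, across Msra and up to Mir124a-1, with 199 kb of domain in all. Ttc7b, a subunit of a lipid kinase complex, stood in a chain of 12 at chr12:100220859-100484630. A chain of 7 at chr18:60746065-60996199 held Camk2a, Cd74, Tcof1, Ndst1 and Slc6a7, the brain proline transporter, and another of 7 held Zfp532 and Oacyl. Of single genes, 47 were overlapped by 3 or more domains. Msra had 12, Ttc7b 9, and Ank, Kalrn, Kcnma1, Nfix, Pknox2, Rbfox3 and Zfp532 had 5 each. Rbfox3 encodes NeuN itself, the protein used for sorting. By chromosome, domains were densest per 100 protein-coding genes on chromosomes 18 (10.8), 12 (10.3) and 15 (8.51) and sparsest on 7 (1.58) and 17 (1.98).

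Groups of neuronal genes were overlapped at different rates. The lists were chosen with earlier results of these data known and are described by counts, beside 2.95% for all genes. Of 30 transcription factors of cortical projection neurons, 8 were overlapped (26.7%), among them Bcl11a, Neurod6, Tcf4, Mef2c, Tbr1, Id2 and Neurod1. Of 28 postsynaptic density and glutamate receptor genes, 14 were overlapped (50%). They included Camk2a and Camk2b, the kinase subunits of the postsynaptic density, the NMDA receptor genes Grin1 and Grin2b, and the scaffold genes Dlg4 and Dlgap1. These are long genes, with a median span of 137 kb against 17.5 kb for all genes, and length was not adjusted for. Counted by gene starts within a domain, the 2 lists had 6 of 23 and 3 of 17, beside 1.003% of all starts.

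Among activity-regulated genes, 5 of 32 were overlapped, and 4 of the 25 with a start in the table started in a domain, namely Midn, Npas4, Per1 and Csrnp1. Npas4, at chr19:4989389-5001795, had 15.7 and 12.1 CPM per kb in Polg libraries and 13.01 and 7.24 in WT libraries, with overlapping groups. Arc, whose protein trims AMPA receptors from synapses, had 5.45 and 9.75 CPM per kb in Polg libraries and 7.46 and 8.73 in WT libraries. Potassium channel genes were overlapped in 5 of 24 cases (among them Kcnma1, Kcnh1, Kcnj9 and Kcnj4). Presynaptic genes were overlapped in 4 of 26 (Sv2b, Bsn, Syt1 and Nrxn2), and sodium, calcium and HCN channel genes in 2 of 23 (Cacnb4 and Cacnb1). These lists hold long genes as well, with median spans of 191, 88.2 and 128 kb in the same order. Gene starts within a domain numbered 0 of 16, 0 of 17 and 1 of 16, and length was not adjusted for. No gene of the GABA neuron list (21 genes), the striatal projection neuron list (20), the thalamic list (14) or the Hox list (34) was overlapped. Of 28 cytosolic ribosomal protein genes, 1 was, Rpl19, in a domain that also held the start of Cacnb1.

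**Figure D2:**
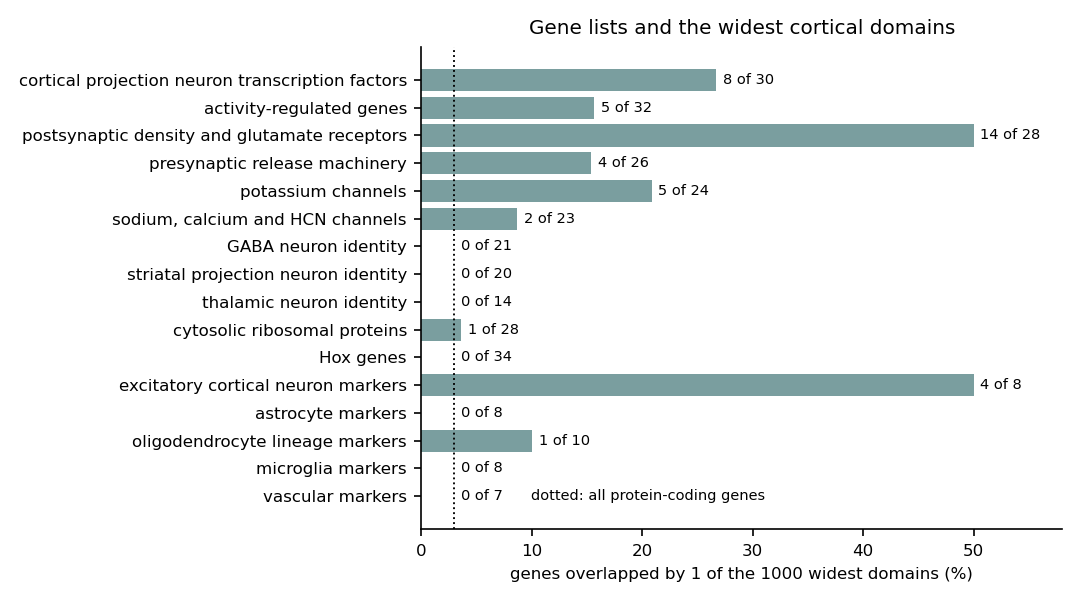
Share of the genes of each list that were overlapped by at least 1 of the 1000 widest domains (%, horizontal axis, bars from 0), with counts beside the bars and a dotted line at 2.95%, the share of all autosomal protein-coding genes. The postsynaptic list and the excitatory marker list stand at 50%, and the GABA, striatal, thalamic, Hox, astrocyte, microglia and vascular lists at 0.

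The labelled cell type was checked with markers over all cortical peaks. All 8 excitatory markers had a cortical peak, and 4 of them (Camk2a, Neurod6, Nrgn and Tbr1) lay in a domain. Of glial and vascular lists, only Mbp, an oligodendrocyte myelin gene of the 10 in its list, lay in a domain. No cortical peak overlapped Olig1, Olig2, Sox10, Mag or Pdgfra of the oligodendrocyte lineage, Cx3cr1, Tmem119, C1qa or C1qb of microglia, Aqp4 or Gja1 of astrocytes, or Cldn5 of vessels. The remaining 21 of the 33 genes of these lists did have peaks (63.6%), a share close to the 66.5% of all autosomal protein-coding genes, so the presence of peaks does not set the glial and vascular lists apart. Sst, Vip, Lhx6, Dlx1 and Calb2 of the GABA list had none, but 16 of the 21 genes of that list did have a peak. So did 15 of 20 striatal and 12 of 14 thalamic genes, so most genes of these lists were marked in cortex too.

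Most domains were also marked in the other regions. A peak overlapped 845 domains in PVT (84.5%), 903 in CP (90.3%) and 908 in NAC (90.8%), against 26.4%, 19.7% and 25.2% of the other cortical peaks. The width of a domain raises its chance of touching a peak, and the length covered differed less, with 45.2% of domain length in PVT, 28.1% in CP and 41.3% in NAC, against 24.5%, 13.2% and 22.2% of the length of other peaks. All 3 regions overlapped 736 domains, and none overlapped 10. At least 50% of the length was covered in 425 domains by PVT peaks, in 185 by CP peaks and in 369 by NAC peaks. Peaks were drawn for each region from its own libraries, and total peak length was 136 Mb in PVT, 70.6 Mb in CP and 120 Mb in NAC, so cover also moves with how much was called there.

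A high rank by width was shared less often. The 1000th widest peak measured 9883 bp in PVT, 3949 bp in CP and 5739 bp in NAC, against 6624 bp in cortex. The same rank thus stands for unlike widths, and the shares below are not shares of equal width. Among the 1000 widest peaks of each other region, the overlap took in 173 domains for PVT (17.3%), 148 for CP (14.8%) and 178 for NAC (17.8%). In cortical peaks of rank 1001 to 2000 these shares were 8.6%, 8.0% and 9.9%, and in those of rank 20001 and beyond 1.34%, 0.477% and 0.672%. A wider peak also has more chance to touch one of them. A widest peak was met in all 3 regions by 30 domains. Domains with a gene start had a median cover of 62.0% in PVT, 32.4% in CP and 44.0% in NAC. Those outside protein-coding genes had 19.5%, 18.7% and 32.4%. An open site of PVT neurons, from ATAC-seq, lay in 697 domains (69.7%, against 16.2% of other peaks), with a median of 1 and at most 6 per domain. Per length the order was the reverse, with 1.11 open sites per 10 kb of domain, 1.43 in peaks of rank 1001 to 2000 and 2.00 in those of rank 20001 and beyond.

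**Figure D3:**
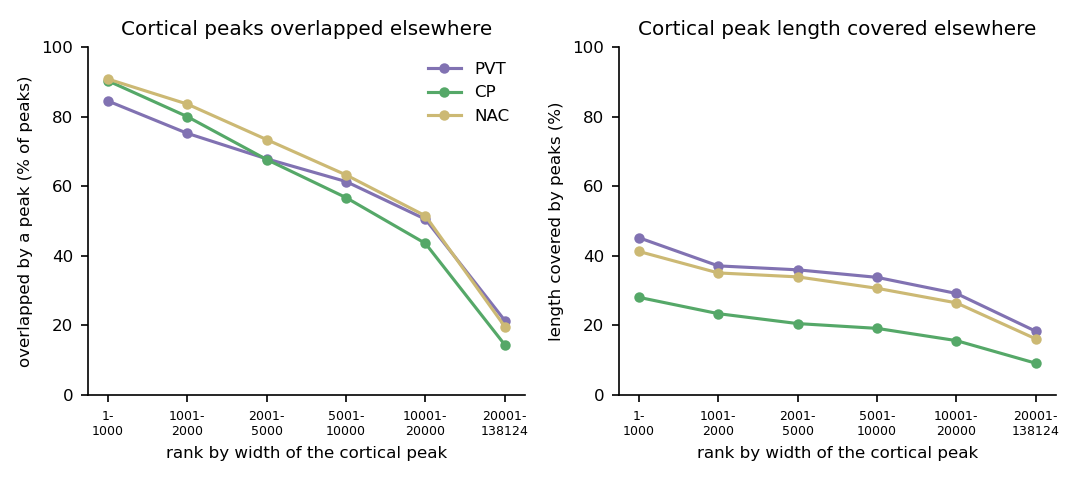
Share of cortical peaks overlapped by a peak of PVT, CP or NAC (left, %) and share of cortical peak length covered (right, %), by rank of width of the cortical peak from the widest 1000 to the narrowest. The overlapped share is 84.5% to 90.8% for ranks 1 to 1000 and 14.4% to 21.4% for ranks 20001 to 138124, while the covered length runs between 28.1% and 45.2% at the wide end and between 9.12% and 18.3% at the narrow end.

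Domains differed in which regions shared them. The limits of under 10% and at least 50% of length covered were chosen after the cover had been seen, and the groups are described with no test. In 70 domains under 10% was covered in all 3 other regions. Some lay at transcription factors known from cortical neurons, and others at unlike genes such as Cdsn, H2-M5 and Me1. Shares of such factors were not compared. The former included Neurod6 (0% covered in PVT, 3.85% in CP and 0% in NAC) and Tbr1 (0%, 5.42% and 0%). Of 4 domains in Zeb2 3 fell here, and of 3 in Zbtb16 2. Others lay at 312 bp from Zbtb18 and at 4762 bp from Pou3f2. Of the 8 overlapped projection neuron factors, only Neurod6 and Tbr1 had their widest domain in this group. Bcl11a was covered in CP and NAC, as given above, and Neurod1 to 59.8% in PVT. Neurod6, at chr6:55674051-55688880, had 9.34 and 6.79 CPM per kb in Polg libraries and 8.87 and 6.04 in WT libraries. Tbr1, at chr2:61800793-61809863, had 10.1 and 10.6 CPM per kb in Polg libraries and 6.03 and 5.53 in WT libraries, with both Polg libraries higher, but its log2 fold change of 0.84 (SE 0.44) had an adjusted p of 0.622 in edgeR's quasi-likelihood test. Of these 70 domains 22 held an open site of PVT neurons, and 5 of the 67 outside chromosome 18 held a gene start, including Prdm8.

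The widest domains with no peak at all in the other regions lay in Agxt2 (16572 bp), beside Pou3f2 (8552 bp), at 243243 bp from Mmp16 (8098 bp), in Cntnap2 (8027 bp) and in Spata16 (7777 bp). Pou3f2 is a transcription factor of upper-layer neurons and Cntnap2 a neurexin-like adhesion gene, while Agxt2 is known as a liver and kidney aminotransferase. The Agxt2 domain, at chr15:10401988-10418560, had 8.03 and 7.85 CPM per kb in Polg libraries and 9.90 and 2.43 in WT libraries.

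In 25 domains under 10% was covered in PVT and at least 50% in both CP and NAC, so these were shared within the telencephalon. The widest was the Mir124a-2 domain described above, with 3.83% covered in PVT, 80.9% in CP and 72.3% in NAC. Pknox2, a homeobox gene, was among them at chr9:36936799-36953578, with 6.53% covered in PVT, 60.2% in CP and 81.8% in NAC. It had 9.14 and 10.1 CPM per kb in Polg libraries and 8.14 and 9.92 in WT libraries. Domains in Hivep2, Chn1 and Baiap2, a postsynaptic scaffold gene, fell in this group too. The opposite form, at least 50% in PVT and under 10% in CP and NAC, held 34 domains. Gabbr2, a subunit of the metabotropic GABA receptor, had 4 of them, each covered to 100% in PVT and to 9.03% or less in CP and 0% in NAC. The widest of them, chr4:46798773-46809650, had 6.15 and 9.17 CPM per kb in Polg libraries and 8.30 and 12.1 in WT libraries. Neurod1, Stmn1, Lsamp, Kalrn and Bsn also lay in this group.

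At least 50% was covered in all 3 regions in 83 domains. These included Mef2d, Camk2b, the start of Midn, Per1, Ank3 and Thra, and a gene start lay in 20 of the 80 outside chromosome 18, against 5 of 67 in the group covered in none. In 5 domains at least 90% was covered in all 3 regions, at Ndrg4, Itpr1, the neuronal calcium release channel, Add2, Klf7 and 12404 bp from Rasd2. The 3 miR-124 loci fell in different patterns: Mir124a-1 was covered to 95.7% in PVT, 6.97% in CP and 73.4% in NAC, and Mir124a-3 to 100%, 56.4% and 100%.

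The cortical comparison of Polg with WT asked whether the mutant polymerase went with altered acetylation. No domain passed edgeR's quasi-likelihood test (0 of 1000, where percent called over all 123573 cortical peaks tested was 0.0%, and the smallest adjusted p in a domain was 0.535). At an unadjusted p under 0.05 there were 21 domains (2.1%), 8 higher and 13 lower in Polg, against 9.29% of all cortical peaks tested. DESeq2 on the same counts called 46 domains (4.6%), 23 higher and 23 lower, against 17.5% of all peaks. The median log2 fold change over the domains was -0.01 (quartiles -0.37 and 0.30), with 486 above and 514 below 0, beside a median of 0.10 over the other peaks. With 2 against 2 libraries the smallest exact two-sided permutation p is 0.333, so no single domain can be judged by permutation.

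Single libraries of a genotype differed by at least as much as the genotype means did. A mean of 2 libraries varies less than a single library, so these measures are unlike and their order alone shows little. On a scale of log2(CPM + 1), domains differed by a median of 0.393 between the 2 Polg libraries and by 0.619 between the 2 WT libraries, and the genotype means by 0.361. Both Polg libraries lay above both WT libraries in 141 domains (14.1%, against 24.8% of all cortical peaks tested) and below them in 199 (19.9%, against 19.7%). WT replicate 2 had 52566179 counts in peaks, against 82399920 to 197650530 in the other cortical libraries. It was the lowest library in 459 domains, and WT replicate 1 was the highest in 381. Over the domains, Pearson's correlation of WT replicate 2 with each other library was 0.31 to 0.37. Among the other libraries it was 0.67 to 0.68, so WT replicate 1 was closer to both Polg libraries than to WT replicate 2. Without WT replicate 1 the median log2 fold change over the domains was 0.23, and without WT replicate 2 it was -0.16.

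Marker lists were summed over all their cortical peaks, and some differed between genotypes in every library while others overlapped, with no test made. In CPM per kb of those peaks, excitatory markers had 10.9 and 10.5 in Polg libraries and 9.76 and 6.76 in WT libraries, a sum that includes Camk2a. Astrocyte genes (6 of 8 with a peak) had 5.53 and 4.72 in Polg libraries and 9.48 and 8.33 in WT libraries. Microglia genes (4 of 8) had 6.86 and 6.95 in Polg libraries and 4.98 and 2.85 in WT libraries, and vascular genes (6 of 7) had 8.96 and 7.61 in Polg libraries and 5.49 and 3.90 in WT libraries. Oligodendrocyte genes (5 of 10) had 6.42 and 7.70 in Polg libraries and 8.85 and 7.73 in WT libraries. Genes of the GABA list (16 of 21) had 6.41 and 9.59 in Polg libraries and 7.27 and 5.35 in WT libraries, and thalamic genes (12 of 14) had 8.06 and 8.28 in Polg libraries and 8.37 and 5.49 in WT libraries, with overlapping groups in both. Genes of the striatal list (15 of 20) had 5.97 and 6.77 in Polg libraries and 7.24 and 7.66 in WT libraries. Their part in the genotype values of the domains was not tested. Fewer nuclei of a type and less mark per nucleus cannot be told apart here. The Polg gene itself had 4 cortical peaks between 509 and 3223 bp wide, none of them a domain and none called, and a point mutation cannot be checked from such counts.

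No domain of any list passed in edgeR, so list members are given as levels, and the Camk2a start, which DESeq2 called, is described below. For these medians only the widest domain of each gene was taken, although some genes had more than 1. The median log2 fold change was 0.09 over the 8 projection neuron factors and 0.10 over the 5 activity-regulated genes. It was -0.09 over the 14 postsynaptic genes and -0.42 over the 4 presynaptic genes, beside -0.01 over all domains. Mef2c, a transcription factor that limits synapse number, had 10.8 and 7.00 CPM per kb in Polg libraries and 12.96 and 7.34 in WT libraries, with overlapping groups. Id2 had 4.65 and 4.12 CPM per kb in Polg libraries and 7.02 and 10.2 in WT libraries, both Polg libraries being lower, and its log2 fold change of -0.97 (SE 0.50) had an adjusted p of 0.607 in edgeR. Tcf4, a helix-loop-helix factor on chromosome 18, had 18.7 and 12.9 CPM per kb in Polg libraries and 11.2 and 4.07 in WT libraries, both Polg libraries being higher, with a log2 fold change of 1.05 (SE 0.54) and an adjusted p of 0.601 in edgeR.

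Among postsynaptic genes, Grin2b had 9.92 and 7.68 CPM per kb in Polg libraries and 9.78 and 3.91 in WT libraries. Camk2b had 7.53 and 5.36 in Polg libraries and 6.08 and 8.31 in WT libraries, and Dlg4, the scaffold PSD-95, had 11.6 and 3.50 in Polg libraries and 8.56 and 8.75 in WT libraries. The groups overlapped in all 3. Shank2, another scaffold, had 3.28 and 3.95 CPM per kb in Polg libraries and 10.6 and 5.61 in WT libraries, and its log2 fold change of -1.17 (SE 0.58) had an adjusted p of 0.578 in edgeR. Syt1, the calcium sensor of transmitter release, had 6.61 and 2.34 in Polg libraries and 14.2 and 2.04 in WT libraries, so its WT libraries differed more from each other than from the Polg libraries.

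The 5 domains of smallest p did not pass in edgeR and are given as values. Besides Camk2a, they lay at 86799 bp from Tbl1xr1, in Atp2b2, a plasma membrane calcium pump, in Thra, a thyroid hormone receptor, and at 176850 bp from Smlr1. Thra had 11.01 and 10.3 CPM per kb in Polg libraries and 4.12 and 3.76 in WT libraries, with a log2 fold change of 1.43 (SE 0.50). Atp2b2 had 3.10 and 2.98 CPM per kb in Polg libraries and 6.42 and 14.4 in WT libraries, with a log2 fold change of -1.77 (SE 0.61). The groups did not overlap in either domain, and the adjusted p was 0.535 in edgeR for each of the 5.

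**Figure D4:**
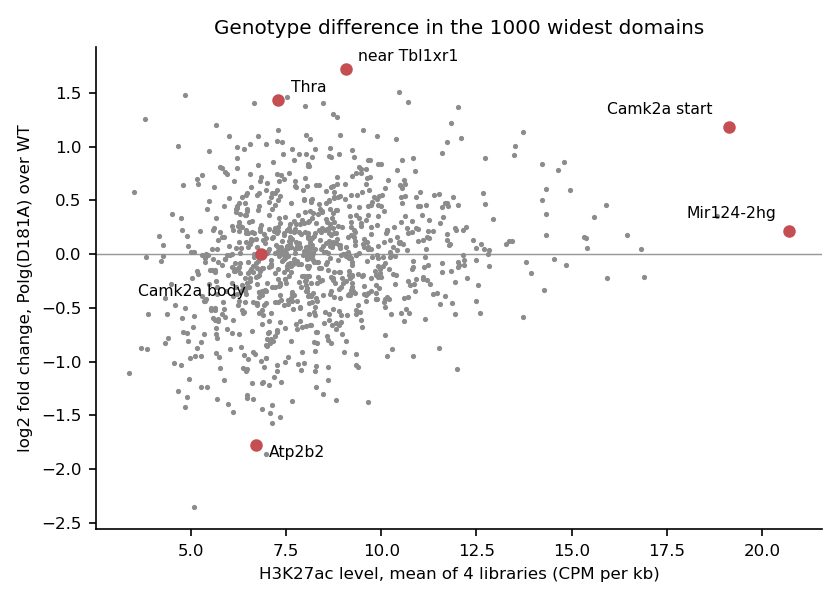
Log2 fold change of Polg over WT (vertical axis) against the mean level of the 4 cortical libraries (CPM per kb, horizontal axis) for the 1000 widest domains, 1 point each, with 6 domains marked in red. The quartiles of the points are -0.37 and 0.30, and among the domains of highest level the Camk2a start, at 1.19, stands above the Mir124-2hg domain, at 0.22.

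Camk2a encodes the alpha subunit of calcium/calmodulin-dependent kinase II, a marker of excitatory neurons. Its domain is described across all 4 regions because its promoter drives the transgene of this line, as given above, and it was picked with its values known. It spanned 21716 bp at chr18:60917694-60939410, from 7613 bp below the lower end of Camk2a to 14103 bp into the gene, and it overlapped the upper end of the neighbouring sulfatase gene Arsi. It had 24.4 and 28.7 CPM per kb in Polg libraries and 15.6 and 7.78 in WT libraries. The log2 fold change was 1.19 (SE 0.37), and edgeR's adjusted p was 0.535. Both Polg libraries exceeded both WT libraries. The next Camk2a domain, 13484 bp at chr18:60940300-60953784 further inside the gene, had 4.87 and 8.79 CPM per kb in Polg libraries and 8.39 and 5.27 in WT libraries, with a log2 fold change of 0.00 (SE 0.49). Without WT replicate 2 the value at the start was 0.78, and without WT replicate 1 it was 1.77.

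In NAC, the peaks overlapping the start domain summed to 747 and 818 CPM in Polg libraries and 295 and 217 CPM in WT libraries. The peak over the gene's lower end, chr18:60917781-60931609, had 11627 and 9200 counts in Polg libraries and 16380 and 1455 counts in WT libraries. Scaled for depth, these were 697 and 789 CPM in Polg libraries and 241 and 159 CPM in WT libraries. It was the only peak called among the 1753 NAC peaks tested that overlap a domain, with a log2 fold change of 1.89 (SE 0.32) and an adjusted p of 2.14e-04 in edgeR. Over all NAC peaks 0.00476% were called (5 of 105058), and it was the only call higher in Polg. With other scaling and without the filter it was called as well, at adjusted p of 0.0117 or below in edgeR. The call was lost when any 1 of the 4 NAC libraries was left out, with log2 fold changes between 1.09 and 2.28 and adjusted p of 0.335 or above, and DESeq2 gave an adjusted p of 0.115. WT replicate 2 of NAC had 6415127 counts in all and 0 counts in 69.6% of peaks. Over all NAC peaks tested the median log2 fold change was 1.09, and both Polg libraries lay above both WT libraries in 28.5%.

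In CP, the peaks over the start domain summed to 407 and 287 CPM in Polg libraries and 220 and 55.4 CPM in WT libraries, so both Polg libraries again stood higher. That order was common in CP, being found in 32.3% of all CP peaks tested, and their median log2 fold change was 0.66. WT replicate 2 of CP had 0 counts in 80.8% of peaks. The CP peak across the gene's lower end, chr18:60924212-60927889, had 232 and 243 CPM in Polg libraries and 139 and 5.62 CPM in WT libraries, and its adjusted p in edgeR was 0.660. In PVT no peak lay over the lower end of the gene, and the first began inside it. The PVT peaks over the domain summed to 66.5 and 47.9 CPM in Polg libraries and 71.7 and 68.9 CPM in WT libraries. No peak overlapping a domain passed in PVT (0 of 1468) or CP (0 of 1839), where percent called over all peaks was 0.0% in both, with 89 (6.06%) and 64 (3.48%) at an unadjusted p under 0.05 in edgeR, against 8.09% and 6.69% of all peaks.

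Further into the gene the sign was not shared. The NAC peak at chr18:60934291-60937675 had 39.8 and 27.3 CPM in Polg libraries and 45.7 and 58.4 CPM in WT libraries, and that at chr18:60940530-60954477 had 101 and 141 CPM in Polg libraries and 152 and 100 CPM in WT libraries. The CP peak at chr18:60945082-60949371 had 29.4 and 45.3 CPM in Polg libraries and 94.5 and 77.3 CPM in WT libraries, while that at chr18:60950933-60952689 had 32.9 and 41.3 CPM in Polg libraries and 6.78 and 0 CPM in WT libraries. The peaks across the lower end of Camk2a were higher in both Polg libraries in cortex, NAC and CP, and those inside the gene went either way. Sequenced fragments of a transgene that carries this promoter and those of the resident gene cannot be told apart in counts over these peaks. Whether that holds a part of the difference was not tested.

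**Figure D5:**
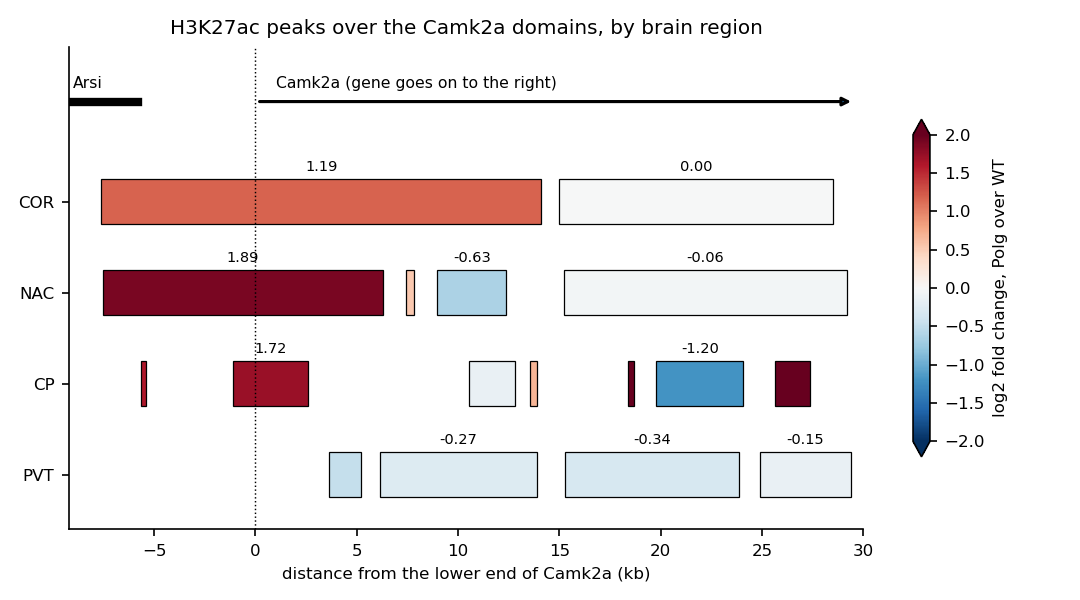
Peaks of cortex (COR), NAC, CP and PVT that overlap the 2 Camk2a domains, drawn to scale by distance from the lower end of Camk2a (kb, horizontal axis), coloured by log2 fold change of Polg over WT with colours ending at 2 and -2, and with the value above peaks wider than 3 kb. The peaks across the lower end show 1.19 in COR, 1.89 in NAC and 1.72 in CP, PVT has no peak there, and the labelled peaks further inside the gene show 0.00 in COR, -0.63 and -0.06 in NAC, -1.20 in CP and -0.27, -0.34 and -0.15 in PVT, while narrow peaks without a label go either way.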

How the data were processed

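H3K27ac immunoprecipitation was counted in 4 libraries of each of 4 brain regions. The authors deposited raw counts per peak for each region, whole numbers with unequal totals, over 1 merged peak set per region. Per the submitters' processing notes, the tools were HOMER, STAR, featureCounts, Subread and DESeq2 on mm10, without roles or versions. The peak threshold and the distance at which peaks were joined, on which width depends, were not given in the sources used here, nor was duplicate removal. The deposited input of each region was not analysed here.

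Width was end minus start. CPM used TMM-scaled totals. Each table was fitted alone with edgeR's quasi-likelihood test (edgeR 4.0.16, R 4.3.3; filterByExpr, robust, two-sided, Benjamini-Hochberg, adjusted p under 0.05), with DESeq2 1.42.0 as an alternative. Tested on simulated counts of 123573 cortical peaks with a biological coefficient of variation of 0.2, the fit recovered 14 of 100 peaks changed by a fold of 2 and 100 of 100 changed by a fold of 4. The common coefficient in the real cortical counts was 1.71. Reads carry no molecular identifiers, so counting error is a lower limit. Total counts ran between 52566179 and 197650530 in cortex, 52759552 and 146450422 in PVT, 12048787 and 101443484 in CP, and 6415127 and 80516545 in NAC.

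Overlap meant at least 1 shared base. Genes came from a table of GRCm38.p6, and starts, known for 16457 of 20665 autosomal protein-coding genes and for none on chromosome 18, from its RefSeq promoter table. Open sites of PVT were used for position alone, from the deposited table of counts. Same-numbered libraries of the 2 genotypes were not paired (correlation of their deviations 0.0343 in cortex).

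Named domains were the 10 widest, 3 on each side of the width limit, the 5 of highest and lowest density, the 5 of smallest p, up to 4 genes per list by width, and the 5 widest with no peak elsewhere. Camk2a, the miR-124 loci and other examples in the groups by cover were named after their values had been seen. The members, lists and rules were chosen with earlier results of these data known. The alternatives were other scaling, no filter, DESeq2, a replicate block, each library left out, 500 or 2000 domains, peaks within 1000 bp joined, and stricter overlap. Values of some single genes that these rules name are not reported here.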

Additional observations from a re-analysis of the deposited data

Results flagged for a closer look

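Among 36 named domains and 79 pairs of a domain with another region that had a peak in it, 3 pairs had both Polg libraries on one side of both WT libraries in cortex and on the opposite side in the other region. The difference between regions was not tested in any of them. Values of the other region are sums over its peaks that overlap the domain, each counted whole even where it reaches outside. The log2 ratios are of those sums after adding 1 CPM per library.

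At the Camk2a start, cortex had 531 and 624 CPM in Polg libraries and 339 and 169 CPM in WT libraries, while PVT had 66.5 and 47.9 CPM in Polg libraries and 71.7 and 68.9 CPM in WT libraries, a log2 ratio of -0.29 in PVT. In the Msra domain of rank 10, cortex had 170 and 171 CPM in Polg libraries and 191 and 215 CPM in WT libraries, while CP had 57.5 and 100 CPM in Polg libraries and 46.7 and 9.25 CPM in WT libraries, a log2 ratio of 1.46 in CP. In the domain beside Btrc, cortex had 37.5 and 38.0 CPM in Polg libraries and 28.5 and 2.999 CPM in WT libraries, while PVT had 5.46 and 0.554 CPM in Polg libraries and 8.59 and 7.83 CPM in WT libraries, a log2 ratio of -1.20 in PVT. Over all tested peaks, both Polg libraries lay below both WT libraries in 24.1% of PVT peaks and above them in 32.3% of CP peaks.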

How the results depend on the processing

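Of 96 values under alternative settings, 70 stayed within 1.5 times the main count or within the replicate or counting error of the main value. The other 26 moved. Whether a call changed sign was not checked. For the ratio of domain median to other-peak median level, 1.17, the replicate error was 1.99. That limit is too wide for a shift to show, so its settings count as unmoved with little meaning. edgeR called 0 cortical peaks under other scaling and without the filter, and 0% of domains there, with 500 or 2000 domains and with joined peaks. DESeq2 called 21623 cortical peaks and 4.6% of domains. A replicate block called 10 cortical peaks, 1 higher and 9 lower in Polg, and no domain. Leaving out each library gave 0 calls in cortex, and the median log2 fold change over domains, -0.01, ran between -0.16 and 0.23. It was also just above 0 without the filter and with the replicate block. The Camk2a start stayed positive in all 9 alternatives (0.78 to 1.77) and was called by DESeq2 alone (adjusted p 7.29e-04), the others giving 0.222 or above.

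Of peaks overlapping domains, DESeq2 called 7.36% in PVT, 12.2% in CP and 0.856% in NAC, against 10.1%, 26.4% and 1.9% of all peaks. Leaving out a library gave 0% in PVT, 0 to 11.9% in CP and 0 to 0.218% in NAC. The 11.9% in CP came without WT replicate 1, with 5.42% of all peaks, and it left WT replicate 2, with 80.8% of peaks at 0; without WT replicate 2 it was 0.141%. In NAC the share was 0.0570%, against 0.228% on total counts, 0% with the replicate block, which ended the call of the NAC peak at the Camk2a start (log2 fold change 1.92, edgeR adjusted p 0.560), 0.0974% for 500 domains and 0.0343% for 2000. Overlap was 88.0%, 94.0% and 94.0% in PVT, CP and NAC for the 500 widest, 79.9%, 85.2% and 87.2% for the 2000 widest, and 42.5%, 18.5% and 36.9% where at least 50% of length had to be covered. The cause of these shifts was not tested beyond the setting itself. The lowest totals were those of NAC and CP libraries, with 6415127 and 12048787 counts.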
